A study of Danio rerio with 9 samples.

Results

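The genes that encode the proteins of the cytosolic ribosome were examined in zebrafish (Danio rerio) embryos that carried 0, 1 or 2 mutant copies of npc2. Members were the counted gene IDs whose symbol starts with rpl or rps and a digit, or is rplp0, rplp1, rplp2 or rpsa, without the rps6k kinases and rps27l. The rule found 82 of 32520 gene IDs, of which 43 carry symbols of the large subunit, 3 of its stalk, 35 of the small subunit, and 1, rps19bp1, is named for a protein that binds RPS19 and is not itself a part of the ribosome. The 82 IDs carry 78 different symbols when upper and lower case are ignored, because several zebrafish copies share a symbol. No counted ID carried the symbol rpsa, so rpsa was not analysed here.

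Ribosomal proteins fold with ribosomal RNA into a small subunit, which decodes mRNA, and a large subunit, which joins amino acids. Each protein is generally present once per ribosome, except for the stalk proteins, so cells make them in matched amounts. In vertebrates their mRNAs start with a run of pyrimidines through which the growth kinase mTORC1 and the RNA-binding protein LARP1 set how much of them is translated, a step that a count of RNA does not measure. In zebrafish, loss of single ribosomal protein genes is known for developmental defects and tumours, and in humans variants in such genes cause Diamond-Blackfan anaemia.

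Polyadenylated RNA was sequenced from whole embryos at 30 hours post fertilisation, with 3 pools of 30 embryos for each genotype. Homozygous embryos (MZnpc2m/m) and heterozygous embryos (Mnpc2+/m) were siblings told apart by their phenotype, and by the usual zebrafish notation M marks a mutant mother. Wild-type embryos (npc2+/+) had other parents, themselves wild-type siblings of the fish that gave the mutants, so genotype cannot be told apart from parents and clutch in either comparison with wild type. The labels call the pools separate but name no clutch or day, so the spread behind the p-values is that of these pools and may be technical. Means given in threes below are in the order wild type, heterozygous, homozygous, each with its SD over 3 pools.

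The libraries held 38564405 (wild-type replicate 1) to 69360234 counts (homozygous replicate 1). A floor of 3 counts was 0.0433 to 0.0778 CPM, where CPM scales a library's counts to a common total, and this limit covers counting error only. Of 2 IDs with the symbol NPC2, the labels do not say which is mutated. ENSDARG00000090912 was at 255.6 to 278.5 CPM in wild-type, 141.7 to 146.4 in heterozygous and 32.6 to 44.3 in homozygous libraries, with no overlap. ENSDARG00000096979 had means of 1.96, 1.41 and 1.21 CPM, and its heterozygous libraries overlapped both other genotypes. Its homozygous libraries all lay below its wild-type libraries (log2 change -0.69, edgeR quasi-likelihood adjusted p = 0.0337). Of the marker lists checked against the whole-embryo label, neuron, neural progenitor, muscle, erythroid, epidermis, lens and dividing-cell genes were found. Not every muscle and erythroid symbol of these lists matched a counted ID (4 and 3 IDs found), and alas2 was near 0.

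Cytosolic ribosomal protein genes were among the most heavily counted genes of the embryo and differed little between genotypes. Together the members held 7.83%, 7.89% and 8.19% of all counts in wild-type replicates 1 to 3, 7.53%, 7.79% and 8.14% in heterozygous replicates, and 8.38%, 8.22% and 8.62% in homozygous replicates. The 3 homozygous shares were the highest, and the wild-type and heterozygous shares overlapped. With TMM scaling, which sets libraries level on genes that change little, the summed level was 80298 ± 2855 CPM (wild type), 78554 ± 2736 (heterozygous) and 83149 ± 2460 (homozygous). On this scale all 3 genotypes overlapped, with homozygous replicate 2 (80826 CPM) below wild-type replicate 3 (83538 CPM) and heterozygous replicate 3 (81191 CPM).

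The members lay in 2 bands of level, with none between a mean of 81.5 and 233 CPM. The upper band held 63 IDs at 233 to 3735 CPM, 35 of the large subunit and stalk and 28 of the small subunit. A lower band of 17 tested IDs held RPL7L1, rps19bp1 and 15 rows with means of 0.206 to 13.3 CPM. RPL26 and rpl32 did not pass edgeR's filter on low counts, so 80 members were tested. The border of 100 CPM between the bands was set after the values were seen. CPM is not divided by gene length, so it does not order the genes by number of transcripts.

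In the upper band, replicates lay close together and the members of a library moved as a block. The coefficient of variation over 3 replicates had a median of 3.91% in wild type, 3.70% in heterozygous and 3.22% in homozygous embryos. In heterozygous replicate 1, 0 of 63 genes were above their own mean over the 9 libraries, and the median gene was at 94.0% of its mean. In homozygous replicate 3, 62 of 63 genes were above their mean, and the median gene was at 107% of its mean. Wild-type replicate 3 had 55 of 63 genes above their mean, against 6 and 7 in wild-type replicates 1 and 2. Within heterozygous embryos this median ran from -0.09 to 0.01 on the log2 scale, a span like the median difference of 0.09 between the mutant genotypes. Counts over these genes are not counts of independent observations.

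**Figure D1:**
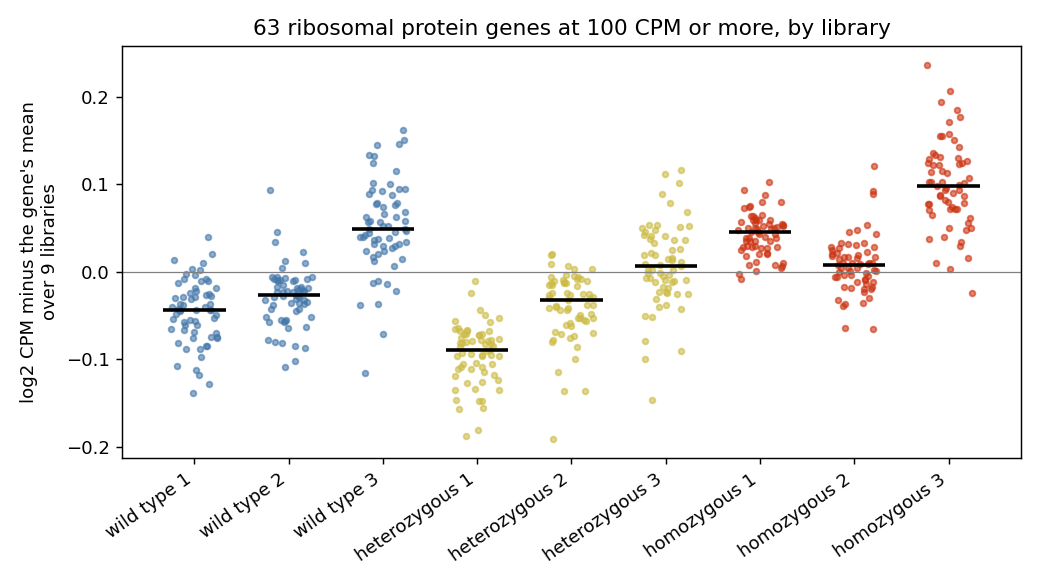
Each point is 1 of the 63 ribosomal protein genes at 100 CPM or more, placed by its log2 CPM minus the mean of that gene over the 9 libraries, and black lines are medians. The whole cloud is shifted down in heterozygous replicate 1 (median -0.09) and up in homozygous replicate 3 (median 0.10), and the genotypes overlap.

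Large and small subunit genes kept nearly the same proportion in all libraries. The summed level of upper-band genes of the large subunit and stalk divided by that of the small subunit was 1.43 ± 0.0118 in wild type, 1.43 ± 0.00433 in heterozygous and 1.44 ± 0.00123 in homozygous embryos. All 3 homozygous values (1.439 to 1.441) lay above all 6 others (1.416 to 1.437). The step between the means of homozygous and wild-type embryos was smaller than the SD of wild type.

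Homozygous embryos were compared with wild type to ask which members change when both copies of npc2 are mutant. Of 80 tested members, 6 rose and 2 fell at an edgeR quasi-likelihood adjusted p under 0.05, while 44.5% of all 20375 genes tested were called (23.5% higher and 21.1% lower). Those that rose included RPL7L1, rplp2, RPL22L1, RPL10A and RPL36, and the 2 that fell were rps19bp1 and RPL12. In the upper band, changes ran from -4.25% (RPS23) to 15.4% (rplp2) with a median of 4.11%. The median log2 change was 0.06, against 0.02 over all genes tested and -0.07 over the other genes at 100 CPM or more. Of 63 upper-band genes, 54 had a fold change above 1. That number was 49 without homozygous replicate 3 or wild-type replicate 1, and 61 without wild-type replicate 3. For 58 of 63 the fold change was within 10%, compared with 40.1% of the 1646 other genes at 100 CPM or more. For 60 of 63 the 95% interval of the fold change lay within 20% either way, compared with 40.3% of those other genes. Libraries did not overlap for 12 of 80 members (10 higher), where 53.9% of all genes did not (28.6% higher and 25.3% lower). The count of 8 called members was 4 without homozygous replicate 1, 3 without homozygous replicate 3 or wild-type replicate 1 or 2, 15 without wild-type replicate 3, 5 by DESeq2 or with RLE scaling, and 16 with scaling by total counts.

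Heterozygous embryos were compared with wild type to ask what 1 mutant copy, with a mutant mother, is associated with. RPL7L1 rose and RPLP1 fell, 2 of 80 members, while 29.8% of all genes were called (15.5% higher and 14.4% lower). Upper-band changes had a median of -2.33% and were lowest for RPLP1 (-10.4%), and 62 of 63 were under 10%, compared with 50.0% of the other genes at 100 CPM or more. The fold change was above 1 for 10 of 63 upper-band genes, a number that was 29 and 1 without heterozygous replicates 1 and 3, and 4 and 28 without wild-type replicates 1 and 3. The 2 calls became 1 without heterozygous replicate 1 or wild-type replicate 2 or 3, and 4 without heterozygous replicate 3 or by DESeq2. Libraries did not overlap for 8 of 80 members (1 higher and 7 lower), against 42.7% of all genes (21.8% higher and 20.9% lower).

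Homozygous and heterozygous embryos, which share parents, were set against each other. Of 80 members, 8 rose (RPL11, RPL22L1, RPL5 of ENSDARG00000015862, RPLP1, rplp2, RPS25, RPS26 of ENSDARG00000037071 and rps27.2) and rps19bp1 fell, while 39.8% of all genes were called (20.4% higher and 19.4% lower). All 63 upper-band genes had a fold change above 1, from 1.43% (RPS2) to 15.4% (rplp2) with a median of 6.16%, and 56 of 63 were under 10%. The median log2 change of the band was 0.09, against 0.01 over all genes tested and -0.11 over the other genes at 100 CPM or more. Libraries did not overlap for 28 higher members and 1 lower member, where 51.2% of all genes did not overlap (26.5% higher and 24.7% lower). The 9 calls became 2, 3 and 25 without heterozygous replicates 1, 2 and 3, 5, 15 and 5 without homozygous replicates 1, 2 and 3, 19 without wild-type replicate 3, and 34 with scaling by total counts. With the replicate number as a block it was 24. The deviations of same-numbered heterozygous and homozygous libraries from their group means correlated at 0.285, 0.401 and 0.586 across the 63 upper-band genes, which share their libraries and are not independent, and at 0.06 to 0.08 across all genes. Without heterozygous replicate 1 none of the calls was higher and 2 were lower, and 62 of 63 upper-band fold changes were still above 1 there.

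**Figure D2:**
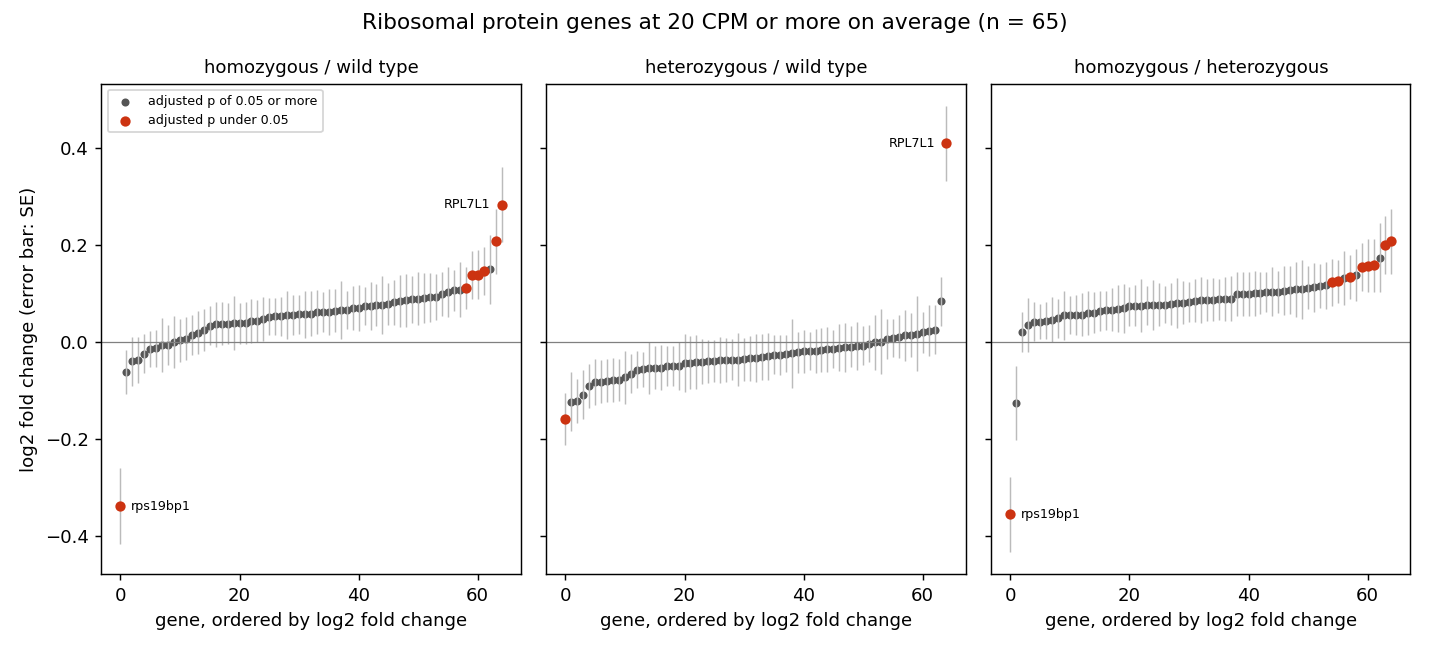
Each point is the log2 fold change of 1 of 65 members with a mean of at least 20 CPM, ordered from lowest to highest in each comparison, with its standard error, and red points are adjusted p under 0.05. RPL7L1 (0.28 and 0.41 against wild type), rps19bp1 (-0.34 and -0.36 in homozygous embryos) and rplp2 (0.21 in homozygous embryos) lie more than 0.2 from zero, and the other genes drawn lie nearer.

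Among the called members reported here, RPL7L1 (ENSDARG00000042864) and rps19bp1 (ENSDARG00000091124) were those whose calls passed under all 20 alternative settings. RPL7L1 is a relative of RPL7, and its counterpart in yeast is an assembly factor of the large subunit that leaves before the ribosome is complete. It was at 70.8, 65.1 and 70.8 CPM in wild-type replicates 1 to 3, 84.1, 89.3 and 101.1 in heterozygous and 82.2, 76.6 and 92.9 in homozygous replicates. Both mutant genotypes lay above all wild-type libraries and overlapped each other. The log2 change (± SE) was 0.41 ± 0.08 in heterozygous (adjusted p = 0.00125) and 0.28 ± 0.08 in homozygous embryos (adjusted p = 0.00866) against wild type, and -0.13 ± 0.08 between the mutant genotypes (adjusted p = 0.215). RPL7 itself (ENSDARG00000007320), a protein of the finished large subunit, was at 2024 ± 60.9, 2052 ± 88.1 and 2179 ± 72.7 CPM, with a log2 change of 0.11 ± 0.04 in homozygous against wild type that missed the threshold (adjusted p = 0.0514). RPL7L1 made up 3.29% ± 0.156 of the summed CPM of the pair in wild type, 4.26% ± 0.215 in heterozygous and 3.70% (replicates 3.60%, 3.52% and 3.99%) in homozygous embryos. For the log2 ratio of the pair each of the 3 comparisons gave p = 0.1 in a two-sided exact permutation test, the smallest that 3 against 3 libraries allow.

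The product of rps19bp1 binds RPS19 and, in human cells, the deacetylase SIRT1. It was at 32.5, 33.5 and 34.8 CPM in wild-type, 35.2, 37.5 and 29.3 in heterozygous and 28.2, 26.1 and 25.4 in homozygous libraries. All 3 homozygous libraries lay below the 6 others. The log2 change was -0.34 ± 0.08 against wild type (adjusted p = 0.00203) and -0.36 ± 0.08 against heterozygous siblings (adjusted p = 0.00151). RPS19, a protein of the small subunit, was at 959 ± 30.5, 949 ± 6.05 and 981 ± 26.4 CPM, and these ranges overlapped.

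**Figure D3:**
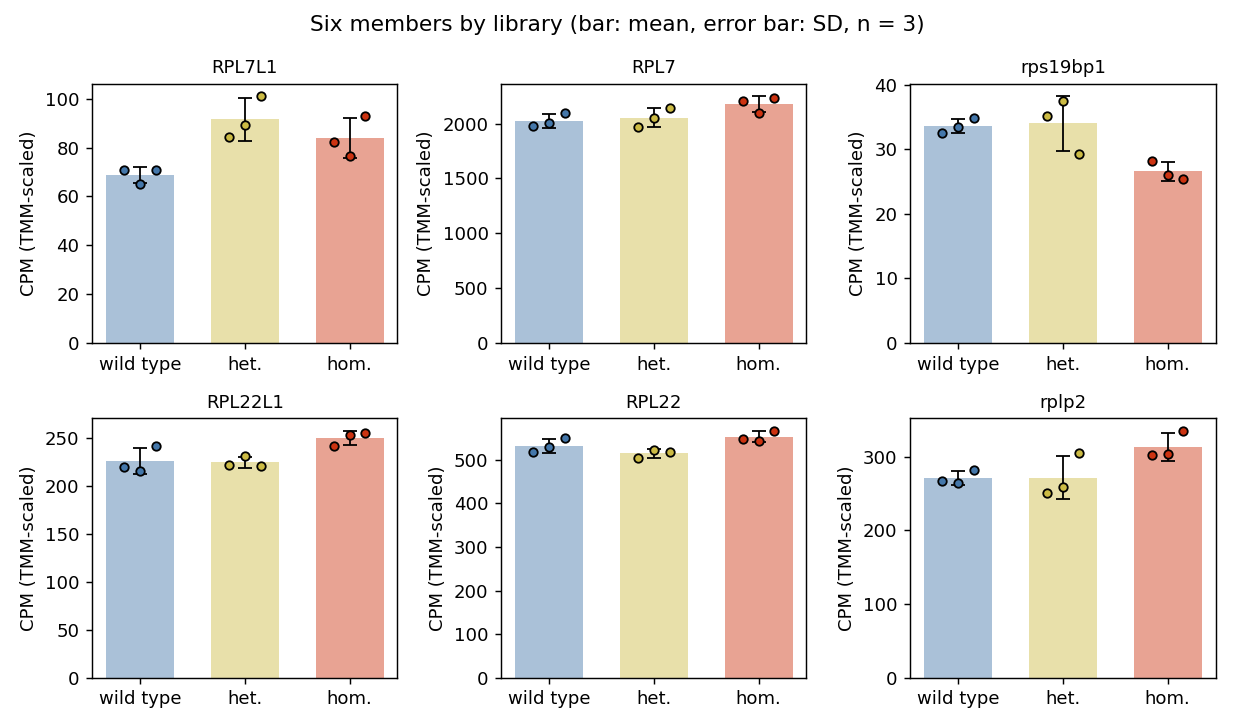
CPM by library (points), genotype mean (bars) and SD (error bars, n = 3) for RPL7L1, RPL7, rps19bp1, RPL22L1, RPL22 and rplp2. RPL7L1 is higher in all 6 mutant libraries than in wild type, rps19bp1 is lowest in the 3 homozygous libraries, and the largest mean shift among the other 4 genes is 15.4% (rplp2).

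The 3 stalk proteins, which draw elongation factors to the large subunit, did not follow 1 pattern. RPLP0 (ENSDARG00000051783), the anchor of the stalk, was at 3743 ± 77.9, 3599 ± 45.4 and 3705 ± 104 CPM, and was called in none of the 3 comparisons (adjusted p = 0.266 to 0.772). RPLP1 (ENSDARG00000021864) was at 1822, 2062 and 2138 CPM in wild-type, 1792, 1859 and 1746 in heterozygous and 2062, 2056 and 1901 in homozygous libraries. Its heterozygous level was lower than wild type, with 1 wild-type library inside the heterozygous range. It fell by 0.16 ± 0.05 against wild type (adjusted p = 0.0362) and was 0.16 ± 0.05 higher in homozygous than in heterozygous embryos (adjusted p = 0.0287). The first call was lost without heterozygous replicate 1 or 3 or wild-type replicate 2 or 3 and with the replicate number as a block, and the second without heterozygous replicate 1 or 3 or homozygous replicate 1 or 2. For rplp2 (ENSDARG00000101406) the values were 267.5, 265.0 and 282.3 CPM in wild-type, 251.0, 258.8 and 305.2 in heterozygous and 302.3, 303.3 and 335.3 in homozygous libraries. The homozygous libraries lay above wild type and overlapped heterozygous replicate 3. Its log2 change was 0.21 ± 0.07 both against wild type (adjusted p = 0.0215) and against heterozygous embryos (adjusted p = 0.0237), the largest rise among upper-band genes in both comparisons. The first call was lost without homozygous replicate 3 or wild-type replicate 1 or 2, and the second without heterozygous replicate 1 or 2 or homozygous replicate 3 and in the fit of the 6 libraries of both mutant genotypes.

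RPL5 and RPL11 bind 5S ribosomal RNA, and in mammals this particle can hold back MDM2, the inhibitor of p53. RPL11 (ENSDARG00000043509) was at 999 ± 45.5 CPM in wild type, 978 ± 36.3 in heterozygous and 1065 ± 55.3 in homozygous embryos. The homozygous libraries lay above the heterozygous ones, and the log2 change of 0.12 ± 0.05 sat at the threshold (adjusted p = 0.0495), a call lost in 12 of 20 alternatives (adjusted p = 0.0149 to 0.194). Of 2 RPL5 IDs, ENSDARG00000015862 was at 419 ± 22.5, 385 ± 29.6 and 442 ± 28.1 CPM and rose by 0.20 ± 0.06 in homozygous against heterozygous embryos (adjusted p = 0.0145), lost without heterozygous replicate 1 or 2 or homozygous replicate 3. The more heavily counted ID, ENSDARG00000020197, was at 1397 ± 29.8, 1350 ± 78.6 and 1453 ± 89.6 CPM, with a log2 change of 0.11 ± 0.05 (adjusted p = 0.101). For the log2 ratio of the 2 IDs the exact permutation p was 0.1 between the mutant genotypes. Against wild type it was 0.7 in homozygous and 0.3 in heterozygous embryos. Of 12 tested genes in a short list of p53 and its targets, 7 rose and 2 fell in homozygous and 3 rose and 3 fell in heterozygous embryos against wild type, and 6 rose and 0 fell in homozygous against heterozygous embryos. These are 75%, 50% and 50% of a list of 12, where 44.5%, 29.8% and 39.8% of all genes were called.

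RPL22 and RPL22L1 are paralogues that in zebrafish have opposing roles in the emergence of blood cells. RPL22L1 (ENSDARG00000010244) was at 219.3, 215.6 and 241.2 CPM in wild-type, 221.3, 231.0 and 220.1 in heterozygous and 240.9, 253.1 and 254.7 in homozygous libraries. The homozygous values were above all heterozygous values, and the lowest of them was just under wild-type replicate 3. RPL22L1 rose by 0.15 ± 0.05 against wild type (adjusted p = 0.0216, lost when wild-type replicate 1 or 2 or homozygous replicate 2 or 3 was left out) and by 0.15 ± 0.05 against heterozygous embryos (adjusted p = 0.0176, lost without heterozygous replicate 1 or homozygous replicate 2). RPL22 (ENSDARG00000070437) was at 533 ± 16.1, 515 ± 9.79 and 553 ± 12.5 CPM, with log2 changes of 0.05 ± 0.04 and 0.10 ± 0.04 in the same comparisons (adjusted p = 0.315 and 0.0551). The share of RPL22L1 in the pair was 29.7% ± 0.780, 30.3% ± 0.461 and 31.1% ± 0.633. The difference of the log2 ratio between homozygous and wild-type embryos had an exact permutation p of 0.1, the smallest that this test can give with 3 pools a group. It was 0.2 for homozygous against heterozygous and 0.2 for heterozygous against wild-type embryos.

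The small subunit pairs of RPS26 and of rps27 differed in call between homozygous and heterozygous embryos. The log2 ratio of the RPS26 pair differed by 0.02 between these genotypes (exact permutation p = 0.5). For rps27.2 over rps27.1 the difference was 0.07 (exact permutation p = 0.1, the smallest that 3 pools a group allow). The share of rps27.2 in its pair was 47.3% ± 0.431 in heterozygous and 48.5% ± 0.174 in homozygous embryos, without overlap. RPS26 rose by 0.13 ± 0.05 for ENSDARG00000037071 (adjusted p = 0.0254, lost without heterozygous replicate 1 or 2 or homozygous replicate 1), and the log2 change of ENSDARG00000030408 was 0.12 ± 0.05 (adjusted p = 0.0534). rps27.2 rose by 0.16 ± 0.06 (adjusted p = 0.0287, lost without heterozygous replicate 1 or 2 or homozygous replicate 3), and the log2 change of rps27.1 was 0.09 ± 0.05 (adjusted p = 0.143). Reads of near-identical copies can be split between IDs by the counting, whose options the labels do not state, so the single copies are uncertain.

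RPL10A, RPL36 and RPS25 moved by about 10% or less. RPL10A, of the large subunit, went from 393 ± 15.4 CPM in wild type to 433 ± 9.41 in homozygous embryos (log2 0.14 ± 0.05, adjusted p = 0.0326, lost when wild-type replicate 2 or 3 or homozygous replicate 1 or 3 was left out, by DESeq2 and with RLE scaling). RPL36, also of the large subunit, went from 499 ± 19.6 to 539 ± 9.09 CPM (log2 0.11 ± 0.04, adjusted p = 0.0483, lost in 13 of 20 alternatives with adjusted p = 0.0115 to 0.173). RPS25, of the small subunit, went from 858 ± 34.3 CPM in heterozygous to 936 ± 27.9 in homozygous embryos (log2 0.12 ± 0.04, adjusted p = 0.0304, lost without heterozygous replicate 1 or 2 or homozygous replicate 1 or 3). RPS6, the small subunit protein that growth signalling phosphorylates, was at 2255 ± 88.2, 2265 ± 69.2 and 2354 ± 74.6 CPM. RPS14 was at 1356 ± 63.0, 1310 ± 26.8 and 1369 ± 25.1 CPM, and RPL3, at the catalytic centre of the large subunit, at 3498 ± 97.9, 3479 ± 151 and 3660 ± 44.8 CPM. None of these 3 was called in any comparison.

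The 15 lowest tested rows included genes whose proteins every ribosome carries, such as RPL10, RPL9, RPL39, RPS3A, RPS12, RPS15 and rps27a. They were counted at 0.380 (RPL9) to 3.62 CPM (RPS12) on average, far under the 233 CPM of the lowest upper-band row. Whether their reads were assigned to other copies or dropped by the counting was not tested. RPL12 (ENSDARG00000006691) was at 4.48, 4.15 and 4.54 CPM in wild-type, 3.38 to 4.0 in heterozygous and 3.24, 3.47 and 3.76 in homozygous libraries, and fell by 0.33 ± 0.12 in homozygous against wild type (adjusted p = 0.0368, lost when wild-type replicate 1 or 3 or homozygous replicate 1 or 2 was left out and with scaling by total counts). All homozygous libraries lay below all wild-type libraries.

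In 4 of the low rows single libraries stood far above the rest, across genotypes. RPL21 (ENSDARG00000010516) had 1408 counts in wild-type replicate 1 and 29 to 64 in the 8 others. RPL13A (ENSDARG00000044093) had 3510 counts in wild-type replicate 3 and 261 to 505 elsewhere. RPS15 (ENSDARG00000070849) had 270 counts in heterozygous replicate 3 and 4 to 20 elsewhere. RPS13 (ENSDARG00000036298) was high in 1 library of each genotype, with 1227 counts in wild-type replicate 1, 2073 in heterozygous replicate 2 and 1902 in homozygous replicate 2, and 184 to 275 in the other 6. RPL30 showed a smaller step, with 325 counts in wild-type replicate 1 and 166 to 245 elsewhere. Of 73 members with at least 200 counts in some library, 3 (4.11%) had 1 library at 5 times or more every other, compared with 27 of 14168 genes (0.191%). These 5 rows were picked after their values were seen. They were called in no comparison, and the log2 change of RPL21 in heterozygous against wild type, -4.46 ± 1.84, rests on 1 wild-type library.

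**Figure D4:**
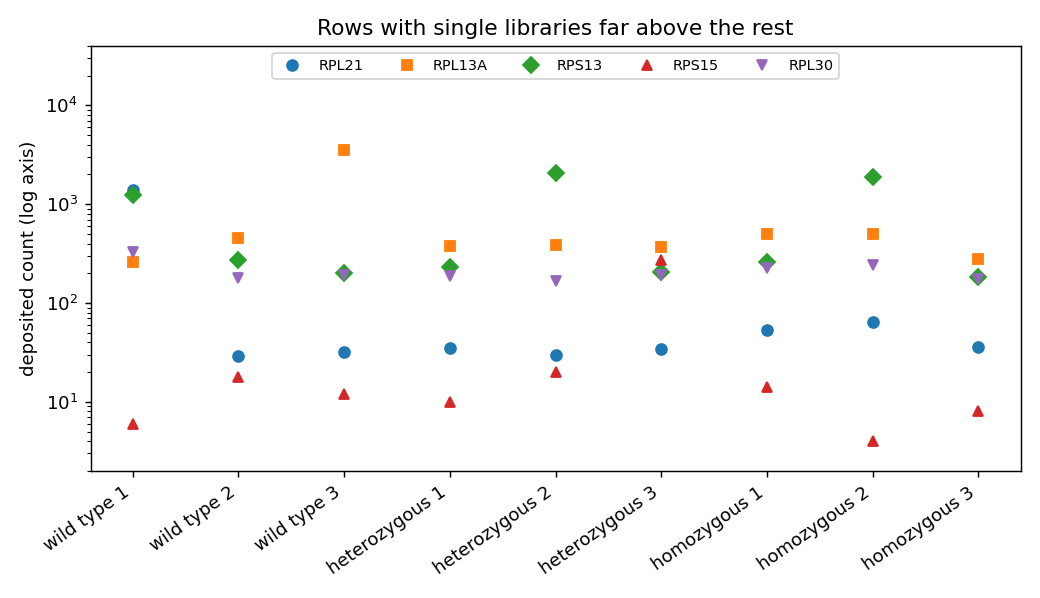
Deposited counts (log axis) of 5 low-count rows in each library. Single points stand far above their row: RPL21 in wild-type replicate 1, RPL13A in wild-type replicate 3, RPS15 in heterozygous replicate 3 and RPS13 in 1 library of each genotype.

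Ribosomal components outside the rule also differed little between genotypes. FAU, which encodes a ribosomal protein fused to a ubiquitin-like protein, and RACK1, a scaffold on the small subunit, were called in 0 of 3 comparisons by edgeR. Their log2 changes were 0.00 (FAU) and -0.01 (RACK1) in homozygous and -0.08 and -0.05 in heterozygous embryos against wild type, and 0.08 and 0.04 between the mutant genotypes. In homozygous against wild type both lay under the lower quartile of the upper band, 0.04. The unadjusted edgeR p of FAU and RACK1 was 0.0910 (FAU between the mutant genotypes) or higher in each comparison.

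Many genes that build ribosomes rose in each mutant genotype against wild type. Of 109 tested genes in a list of nucleolar and assembly factors, 77 rose and 3 fell in heterozygous embryos (median log2 change 0.32), where 15.5% of all genes were called higher and 14.4% lower. In homozygous embryos 61 rose, 5 fell and 43 were not called (median 0.23), where 23.5% of all genes were called higher and 21.1% lower. Between the mutant genotypes 7 were higher and 38 lower in homozygous embryos (median -0.15), and these 45 calls were 27 and 28 without homozygous replicates 1 and 2. The share called in this comparison, 41.3%, was close to the 39.8% of all genes. By direction, 6.42% of the list was called higher and 34.9% lower, against 20.4% and 19.4% of all genes. ubtf, a transcription factor for ribosomal RNA genes, was at 185 ± 3.97, 276 ± 5.63 and 219.8 ± 2.09 CPM, with no overlap, and rose by 0.58 ± 0.04 in heterozygous embryos (adjusted p = 3.58e-08). GNL3, a nucleolar GTPase of stem cells, rose by 0.66 ± 0.06 in heterozygous embryos (adjusted p = 9.24e-07), and FCF1, a small subunit processing factor, by 0.71 ± 0.07 in homozygous embryos (adjusted p = 1.72e-07). npm1b, a nucleolar chaperone gene, fell in homozygous embryos (log2 change -0.48 ± 0.06, adjusted p = 3.69e-06).

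Of 68 tested mitochondrial ribosomal protein genes, 25 fell, 1 rose and 42 were not called in homozygous embryos against wild type (median log2 change -0.16). The share called, 38.2%, was under the 44.5% of all genes, and the share called lower was 36.8%, against 21.1% of all genes. Against heterozygous siblings 40 fell and 0 rose (58.8% called, against 39.8% of all genes), with a median of -0.22 and 4 of 68 above zero. In heterozygous embryos 11 rose and 0 fell against wild type (16.2% called, against 29.8% of all genes), with a median of 0.07. The 26 calls against wild type were 16 without homozygous replicate 1, and the 40 against siblings were 26, 23 and 24 without heterozygous replicate 3 and homozygous replicates 1 and 2. MRPL12, a large subunit protein of the mitochondrial ribosome, was at 45.2 ± 1.16 CPM in wild type, 57.4 ± 1.52 in heterozygous and 40.7 ± 2.86 in homozygous embryos. It rose by 0.35 ± 0.06 in heterozygous embryos (adjusted p = 1.94e-04) and was -0.50 ± 0.06 in homozygous against heterozygous embryos (adjusted p = 1.98e-06). MRPS24 went from 26.8 ± 2.49 (wild type) to 19.2 ± 2.50 CPM (homozygous), a log2 change of -0.48 ± 0.09 (adjusted p = 2.79e-04).

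Translation factors were called in both directions in each comparison, and their medians stayed near those of all genes. Of 63 tested, 12 rose and 8 fell in homozygous and 21 rose and 6 fell in heterozygous embryos against wild type, with medians of 0.04 and 0.05. These are 31.7% and 42.9% of the list, where 44.5% and 29.8% of all genes were called. Between the mutant genotypes 5 were higher and 16 lower in homozygous embryos (median -0.04). That is 33.3% of the list, where 39.8% of all genes were called. By direction, 7.94% of the list was called higher and 25.4% lower, against 20.4% and 19.4% of all genes. The helicase gene eif4a1a was at 456 ± 24.2, 726 ± 18.4 and 554 ± 23.7 CPM and rose by 0.67 ± 0.05 in heterozygous embryos (adjusted p = 3.25e-08). The elongation factor gene eef1a1l1, whose mRNA in mammals is translated under the same control as those of ribosomal proteins, rose by 0.20 ± 0.03 in homozygous embryos (adjusted p = 7.44e-05). Of 20 tRNA synthetase and associated genes, 5 rose and 0 fell in homozygous and 6 rose and 3 fell in heterozygous embryos against wild type, which is 25% and 45% of the list, and the 5 were 8 without heterozygous replicate 3 or wild-type replicate 3. Of 20 regulators of growth and of translation by mTORC1, 3 rose and 4 fell in homozygous (35%) and 5 rose and 4 fell in heterozygous embryos (45%), beside the same 44.5% and 29.8% of all genes. The median log2 change of these 20 was 0.01 in homozygous and 0.01 in heterozygous embryos against wild type. Between the mutant genotypes 4 were higher and 6 lower in homozygous embryos (50%, where 39.8% of all genes were called). EIF4EBP3, 1 of the 20 and a repressor of cap-dependent translation, was at 78.8 ± 3.59, 41.8 ± 1.41 and 68.2 ± 1.71 CPM.

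**Figure D5:**
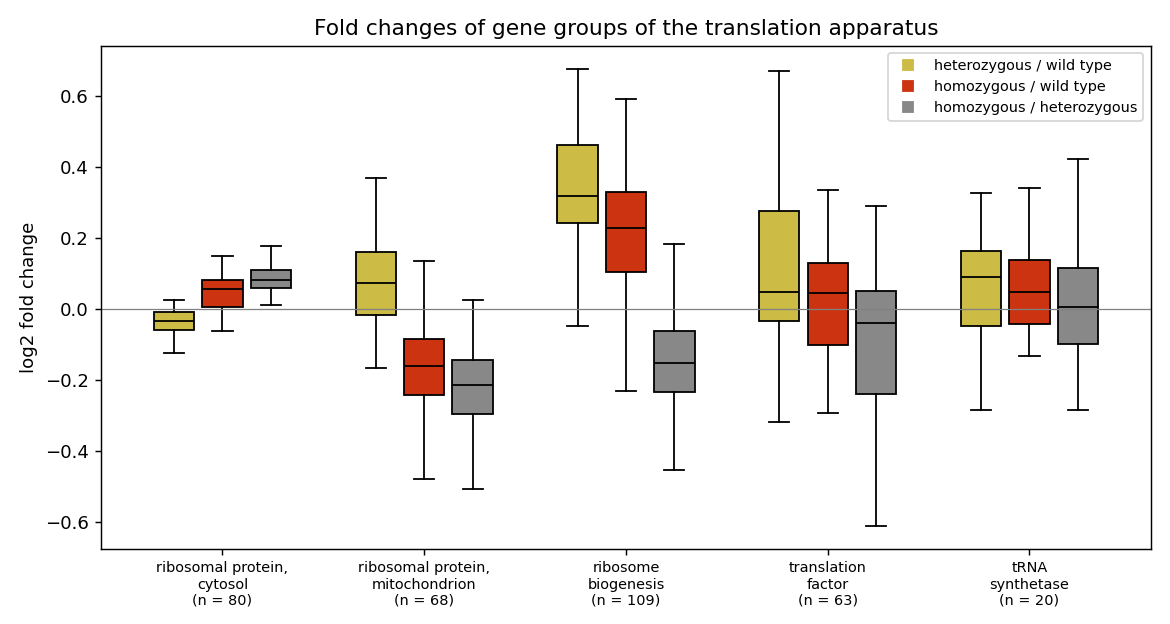
Log2 fold changes of the tested genes of 5 groups in the 3 comparisons (boxes are quartiles with the median, whiskers reach 1.5 times the box, and genes beyond are not drawn). The boxes of the cytosolic ribosomal protein genes are narrow and near zero, ribosome biogenesis has medians above zero against wild type ( 0.32 and 0.23), and mitochondrial ribosomal proteins have medians below zero in homozygous embryos ( -0.16 and -0.22).

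Markers of several cell types changed between genotypes. Numbers in brackets are genes called in homozygous embryos against wild type, where 23.5% of all genes were called higher and 21.1% lower. In heterozygous embryos, 2 of 3 neuron, 2 of 4 neural progenitor and 2 of 4 muscle genes were called lower against wild type. So were 2 of 2 erythroid and 1 of 3 lens genes, while 1 of 3 epidermis and 1 of 4 dividing-cell genes rose. There 15.5% of all genes were called higher and 14.4% lower. Summed neuron markers (3 of 3 higher in homozygous against wild type) were at 689 to 789 CPM in wild-type, 647 to 688 in heterozygous and 1177 to 1260 in homozygous libraries. Neural progenitor markers (4 of 4 lower) were at 908 to 926, 817 to 881 and 415 to 436 CPM, and markers of dividing cells (4 of 4 lower) at 2378 to 2442, 2513 to 2774 and 1966 to 2185 CPM in the same order. Skeletal muscle markers (3 of 4 lower) were at 19833 to 20970, 17303 to 18428 and 12306 to 13218 CPM. Erythroid markers (2 of 2 tested lower) were at 2690 to 2862, 2210 to 2412 and 2006 to 2070 CPM, epidermis markers (2 of 3 higher) at 5311 to 5554, 6158 to 6297 and 6279 to 6812 CPM, and lens markers (1 of 3 lower) at 199.7 to 242, 207 to 234 and 205 to 236 CPM. In pools of whole embryos, fewer cells of a type and less RNA per cell cannot be told apart. The part of these shifts in the differences of the ribosomal protein, biogenesis and mitochondrial genes was not tested.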

How the data were processed

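Polyadenylated RNA of 9 whole-embryo pools, 3 per npc2 genotype, was analysed from counts per gene. The authors deposited whole-number counts, not normalized. Per the submitters' processing notes, cutadapt 1.18, HISAT2 2.1.0, featureCounts 1.6.3 and the build GRCz11 (danRer11) were used. The labels state no annotation release, strand setting or counting option, so overlapping, antisense and near-identical genes are uncertain. Of the counts from 1 to 19, 96.3% to 97.5% were even in each library, so most fragments may hold 2 counts. Groups came from the sample titles. Symbols came from a names table, in which 29201 of 32520 IDs matched.

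All 9 libraries entered 1 fit of edgeR's quasi-likelihood test (edgeR 4.0.16, R 4.3.3, robust), with its default filter (20375 genes kept, 12145 dropped), TMM scaling, no replicate block and Benjamini-Hochberg adjustment over all genes tested. Genes were called at an adjusted p under 0.05. Values after ± are SD over 3 pools for CPM and standard errors for log2 fold changes, approximated as the change divided by the square root of F. Intervals of 95% used these errors with 6 degrees of freedom. Alternatives were DESeq2 1.42.0, limma-voom (limma 3.58.1), other scalings and filters, fits of 2 genotypes, halved counts, a replicate block and leaving out each library. The procedure was tested on simulated counts. Replicate pairs were distinct libraries (chi-square divided by its degrees of freedom was 2.65 to 7.40 on halved counts). Samples sharing a number were not paired in the main fit: correlations of their deviations over all genes were -0.02 to 0.08. Over the 63 members at 100 CPM or more they were 0.285 to 0.586 between the mutant genotypes and -0.529 to 0.223 in pairs with wild type.

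Members and gene lists were chosen with earlier results of these data known. Named members were fixed roles, the 3 largest called changes each way per comparison, and pairs of copies that differed in call. Other called members are named too, and results on some genes are not reported here. Other lists were described by counts, medians and genes among the lowest adjusted p. No gene lengths were used, so the step of the rule that ranks members by level was not applied.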

Additional observations from a re-analysis of the deposited data

How the results depend on the processing

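The calls of RPL7L1 against wild type in both mutant genotypes and of rps19bp1 in homozygous embryos passed in 20 of 20 alternatives. All other called members reported here lost their call in 2 to 13 of 20. The median log2 change of the 63 genes at 100 CPM or more kept its sign in all alternatives, at 0.03 to 0.08 for homozygous against wild type, -0.07 to -0.00326 for heterozygous against wild type and 0.06 to 0.12 between the mutant genotypes. Scaling by total counts was chosen after seeing the data. The number of called members (8 in homozygous and 2 in heterozygous embryos against wild type, and 9 between the mutant genotypes) became 5 and 4 by DESeq2 in the first 2 and 5 with RLE scaling in the first, and 16 and 34 with scaling by total counts for homozygous against wild type and between the mutant genotypes. The cause was not tested. With the replicate number as a block the counts were 14, 4 and 24. The labels tie the numbers to no clutch or day. Over all genes 0 of 9 pairs correlated above 0.1, and 2 of 9 libraries correlated best with their own number. Over the 63 members the 3 heterozygous-homozygous pairs correlated above 0.1 (0.285, 0.401 and 0.586), and so did wild-type and heterozygous replicate 2 (0.223). The other pairs with wild type were under 0.1, the lowest at -0.529 for wild-type and heterozygous replicate 1. Leaving out 1 library gave 3 to 15, 1 to 4 and 2 to 25. RPL7 in heterozygous against wild type changed sign without heterozygous replicate 3 (-0.0216, with a range of -0.0216 to 0.0503 over the libraries left out). Summed levels moved by less than 1 SD in all alternatives. Among other lists, tRNA synthetase calls (5 in homozygous against wild type) were 9 by DESeq2, and 8 with RLE or upper-quartile scaling, with at least 1 CPM in 3 libraries, with the replicate block, and without heterozygous replicate 3 or wild-type replicate 3. Between the mutant genotypes they went from 10 to 6 without heterozygous replicate 2. Mitochondrial calls in homozygous against wild type went from 26 to 16 without homozygous replicate 1. Between the mutant genotypes they went from 40 to 26, 23 and 24 without heterozygous replicate 3 and homozygous replicates 1 and 2, and biogenesis calls from 45 to 27 and 28 without homozygous replicates 1 and 2. Rows under 5 CPM had standard errors of 0.12 and more, so small changes there were not detectable at this depth.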
